A study of Mus musculus with 8 samples.

Results

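The genes described here were 49 genes of mitosis and chromosome segregation: the cyclins, kinases and ubiquitin ligase parts that start and end mitosis, the spindle checkpoint, the centromere and kinetochore, the spindle, cytokinesis and the machinery of chromosome structure. They were taken as the rows of the deposited expression table whose gene symbol was on the list. All 49 were found among the 12417 entries of the table, and all 49 were among the 10238 entries with a mean of at least 1 TPM that were tested. TPM is a transcript's abundance scaled for its length and for the total of its library. Their mean levels ran from 9.20 TPM for *Ttk* to 1203 TPM for *Cks2*, with a median of 66.4 TPM against 11.0 TPM for all entries tested.

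The libraries were made from donor CD4+ T cells after allogeneic hematopoietic cell transplantation (alloHCT), in which donor T cells that recognise the recipient's MHC expand and cause graft-versus-host disease. One donor population, ST2WT, carried intact St2+/+ alleles and the marker CD45.1+ on the B6 background. The other, ST2fl/fl, was CD45.2+ and came from B6 mice that combine *CD4-Cre*, the reporter *R26-LSL-YFP* and *St2fl/fl*. ST2 is the receptor of the alarmin IL-33. In the second strain Cre is driven by the *Cd4* promoter, so the floxed allele is deleted and YFP is switched on in cells of the T lineage. Both populations were transferred together with T cell-depleted B6 bone marrow into the same lethally irradiated BALB/c mice and were sorted from the spleen on d5. Each of 4 recipients gave 1 library of each genotype, 8 in all. The labels number the libraries and name no recipient, and the number was taken to mark the recipient. The study's mice were aged 6 to 10 weeks when experiments began. The CD45 allele, Cre and YFP differ between the populations together with St2, and their effects cannot be told apart in this design.

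Mitotic genes are transcribed in a wave late in the cell cycle. In mammals the DREAM complex holds many of them silent in resting cells, and MYBL2, FOXM1 and the MuvB core switch them on before cells divide. MuvB binds a promoter element called the CHR, most often with the letters TTTGAA, through its subunit LIN54, and the factor NF-Y binds CCAAT boxes nearby. T cells that meet antigen go through many rapid divisions, so the wave is prominent in clonal expansion. In a library of sorted cells, a smaller share of dividing cells and less of these transcripts per cell cannot be told apart.

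The promoters of 41 of the 49 genes were matched by symbol in a RefSeq promoter table for GRCm38.p6, with 250 bases before and 50 bases after the transcript start. TTTGAA stood on either strand in 32 of the 41 (78.0%), against 5466 of the 27025 genes in the table (20.2%) and 14.7% of its 7611 genes that were tested here. In 65 other mitosis genes with an entry it stood in 43.1%, and in 30 DNA replication genes in 16.7%. CCAAT stood on either strand in 32 of the 41 (78.0%), against 41.1% of all genes, 61.5% of the other mitosis genes and 56.7% of the replication genes. Both motifs together were found in 28 of the 41 (68.3%), against 7.97% of all genes. The related palindrome TTTAAA was found in 9 of the 41 (22.0%), against 14.9%. Counted over all 32851 promoters in place of genes, TTTGAA was in 17.9%, the palindrome in 13.2% and the CCAAT box in 37.4%. The matches are a description of letters and do not show binding. The median position of a TTTGAA match in the members was -16 from the transcript start, and that of a CCAAT match was -71.

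The 120 bases before the start of 6 members are printed, with matches to these motifs on either strand in capitals. TTCAAA is the reverse complement of the first motif, and a CCAAT box on the other strand reads ATTGG. *Plk1*, *Kif11*, *Ccnb2*, *Cdc20* and *Mad2l1* are members with an unadjusted p under 0.05, and *Cdk1* is the kinase that the cyclins bind. *Cdc20*, the activator of the anaphase-promoting complex, has TTTGAA at -18 between CCAAT boxes at -53 and -8, and *Cdk1* has 2 copies of TTTGAA and 2 CCAAT boxes. *Plk1* and *Ccnb2* have no TTTGAA in the stretch, where *Plk1* has TTTAAA and CCAAT and *Ccnb2* has CCAAT boxes alone. Their TTTGAA matches lie outside it, at 31 for *Plk1* and at -167 and 5 for *Ccnb2*. *Mad2l1* has none of these motifs in the stretch.
Plk1, chr7:122159315-122159434, plus strand: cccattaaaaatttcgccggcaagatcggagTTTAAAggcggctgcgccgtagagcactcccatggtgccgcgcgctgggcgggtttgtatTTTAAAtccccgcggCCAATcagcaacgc
Kif11, chr19:37376262-37376381, plus strand: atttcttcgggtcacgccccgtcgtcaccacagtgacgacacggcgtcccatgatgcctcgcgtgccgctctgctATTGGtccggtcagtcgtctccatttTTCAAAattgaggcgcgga
Ccnb2, chr9:70421555-70421674, minus strand: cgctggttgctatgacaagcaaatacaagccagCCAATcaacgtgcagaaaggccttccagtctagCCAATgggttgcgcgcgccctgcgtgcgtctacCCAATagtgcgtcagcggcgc
Cdc20, chr4:118437344-118437463, minus strand: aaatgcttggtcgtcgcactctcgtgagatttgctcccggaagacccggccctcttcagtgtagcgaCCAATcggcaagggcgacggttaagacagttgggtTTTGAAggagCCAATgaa
Cdk1, chr10:69352913-69353032, minus strand: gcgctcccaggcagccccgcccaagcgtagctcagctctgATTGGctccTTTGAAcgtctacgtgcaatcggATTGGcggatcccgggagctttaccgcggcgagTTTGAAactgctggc
Mad2l1, chr6:66535101-66535220, plus strand: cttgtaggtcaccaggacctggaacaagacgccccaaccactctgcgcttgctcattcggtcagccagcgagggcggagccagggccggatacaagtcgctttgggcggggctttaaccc

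The comparison asked how donor CD4+ T cells with and without ST2 differed on d5 in the same recipients. Most mitosis genes had slightly higher TPM in ST2WT than in ST2fl/fl cells, and none differed past the threshold. The fold change, ST2WT over ST2fl/fl on the log2(TPM + 1) scale, was above 0 for 47 of the 49 members, against 4940 of 10238 entries tested (45 members with quantile normalization and 46 without mitochondrial entries), and its median was 0.21, against -0.01 over all entries. It ran from -0.12 for *Cenpf* to 0.45 for *Spc24*, and no member's fold change reached 1.5. None of the 49 members passed the threshold in limma, a fold change over 1.5 with an adjusted p (Benjamini-Hochberg) under 0.05, where 53 of all entries tested (0.518%) passed. With the recipient as a block, 0 of 49 passed, against 95 of all entries (0.928%). In limma 12 members had an unadjusted p under 0.05, all 12 with higher levels in ST2WT cells, against 6.8% of all entries that were higher at that p. With the recipient as a block 16 members were higher at that p, against 10.3% of all entries. *Ccnb1*, *Cdk1*, *Aurka* and *Spc25* were added. Unless the block is named, the p given below are from the fit without it, which ignores the pairing. In that fit the lowest adjusted p of a member was 0.111 (limma), for *Cdca3*.

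The count of 12 was 20 without the ST2WT library of recipient 4 (7.23% of all entries) and 7 without the ST2fl/fl library of recipient 4 (4.73%). It was 5 and 6 without both libraries of recipients 1 and 3 (3.44% and 5.27%). In 9 of the 49 members (18.4%) every ST2WT library lay above every ST2fl/fl library, against 4.58% of all entries. These were *Ccnb2*, *Cks1b*, *Cdca3*, *Plk1*, *Bub1*, *Bub1b*, *Kif11*, *Racgap1* and *Ect2*. In no member did every ST2WT library lie below every ST2fl/fl library, as was so for 558 of the 10238 entries tested. The 9 became 20 without the ST2WT library of recipient 4 (7.1% of all entries) and 14 without the ST2fl/fl library of recipient 2 (8.57%). Without both libraries of recipients 1, 2 and 4 they were 14, 15 and 23, against 6.98%, 11.3% and 8.42% of all entries.

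**Figure D1:**
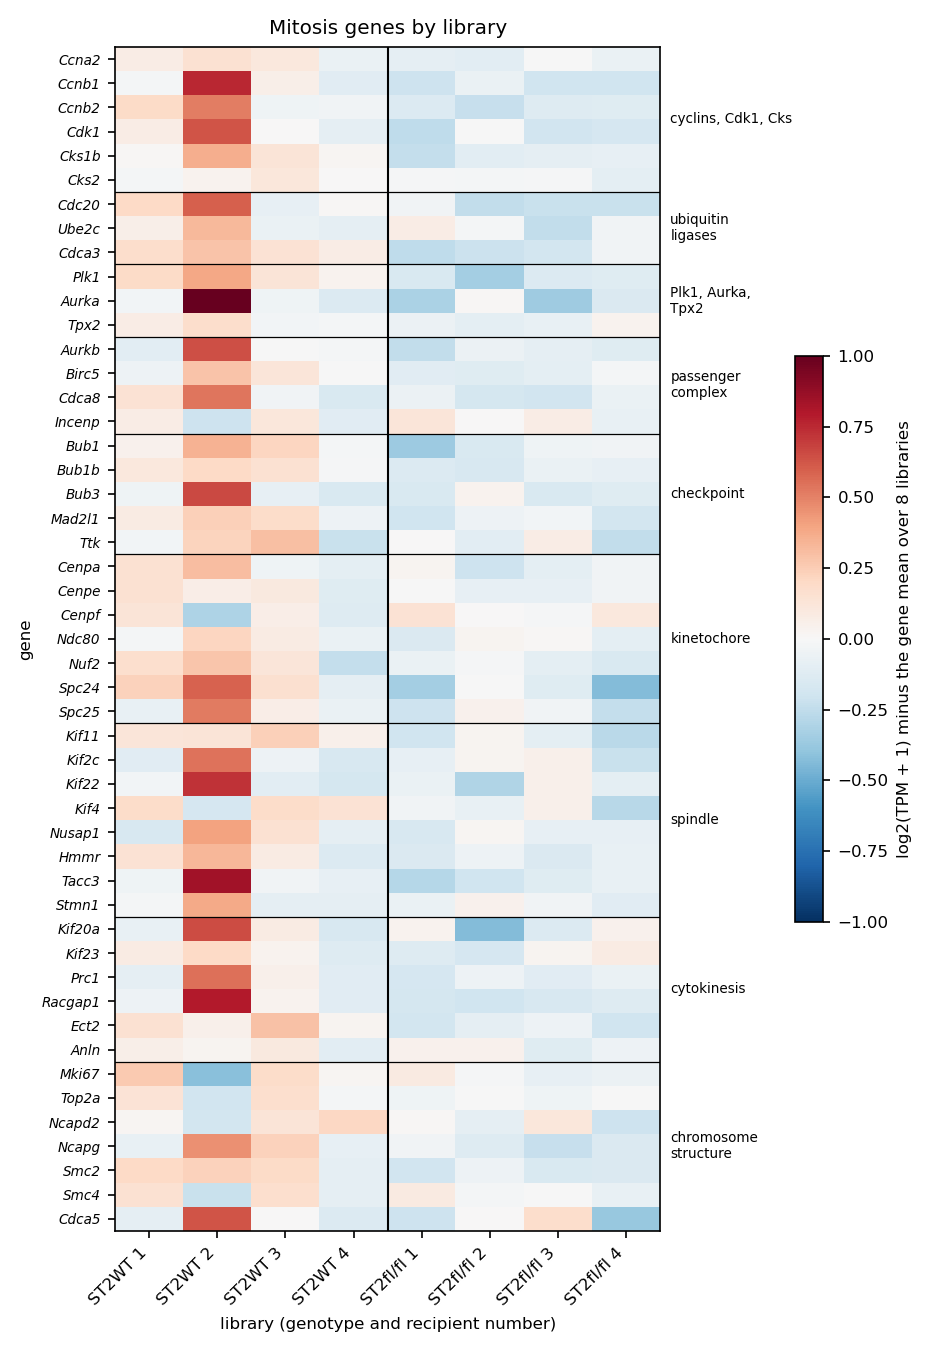
Each row is 1 of the 49 mitosis genes, each column 1 of the 8 libraries, and the color is log2(TPM + 1) minus the mean of that gene over the 8 libraries. The ST2WT library of recipient 2 holds the darkest reds and is the highest of the 8 libraries for 36 genes, and the pale right side shows the small differences among the ST2fl/fl libraries.

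Recipients differed in how far the populations lay apart. ST2WT TPM was above ST2fl/fl TPM for 40 of the 49 members in recipient 1, 41 in recipient 2, 45 in recipient 3 and 29 in recipient 4, against 50.1%, 51.1%, 44.8% and 47.2% of all entries tested. The median ratio of ST2WT to ST2fl/fl TPM over the members was 1.12, 1.30, 1.13 and 1.02 in the same order. Recipient 4 thus held the smallest median ratio and recipient 2 the largest. ST2WT TPM was above ST2fl/fl TPM in all 4 recipients for 20 members (40.8%), against 14.6% of all entries, in 3 recipients for 19, in 2 for 8 and in 1 for 2. No member was lower in ST2WT cells in every recipient, as 16.7% of all entries were.

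The ST2WT library of recipient 2 stood apart. It was the highest of the 8 libraries for 36 members and the lowest for 5, and the members held 0.894% of its TPM, against 0.690 to 0.742% in the other ST2WT libraries and 0.664 to 0.677% in the ST2fl/fl libraries. Over all entries the SD of its difference from the mean of the others was 0.465 on the log2 scale, against 0.242 to 0.279 in the other libraries, and mitochondrially encoded entries made up 9.18% of its TPM, against 12.7 to 13.8%. Without it, the fold change was above 0 for 45 of the 49 members, the median was 0.11, 15 members were higher at an unadjusted p under 0.05 against 7.72% of all entries, and 0 passed the threshold (limma). The fold change was smaller without this library for 39 members and larger for 10.

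**Figure D2:**
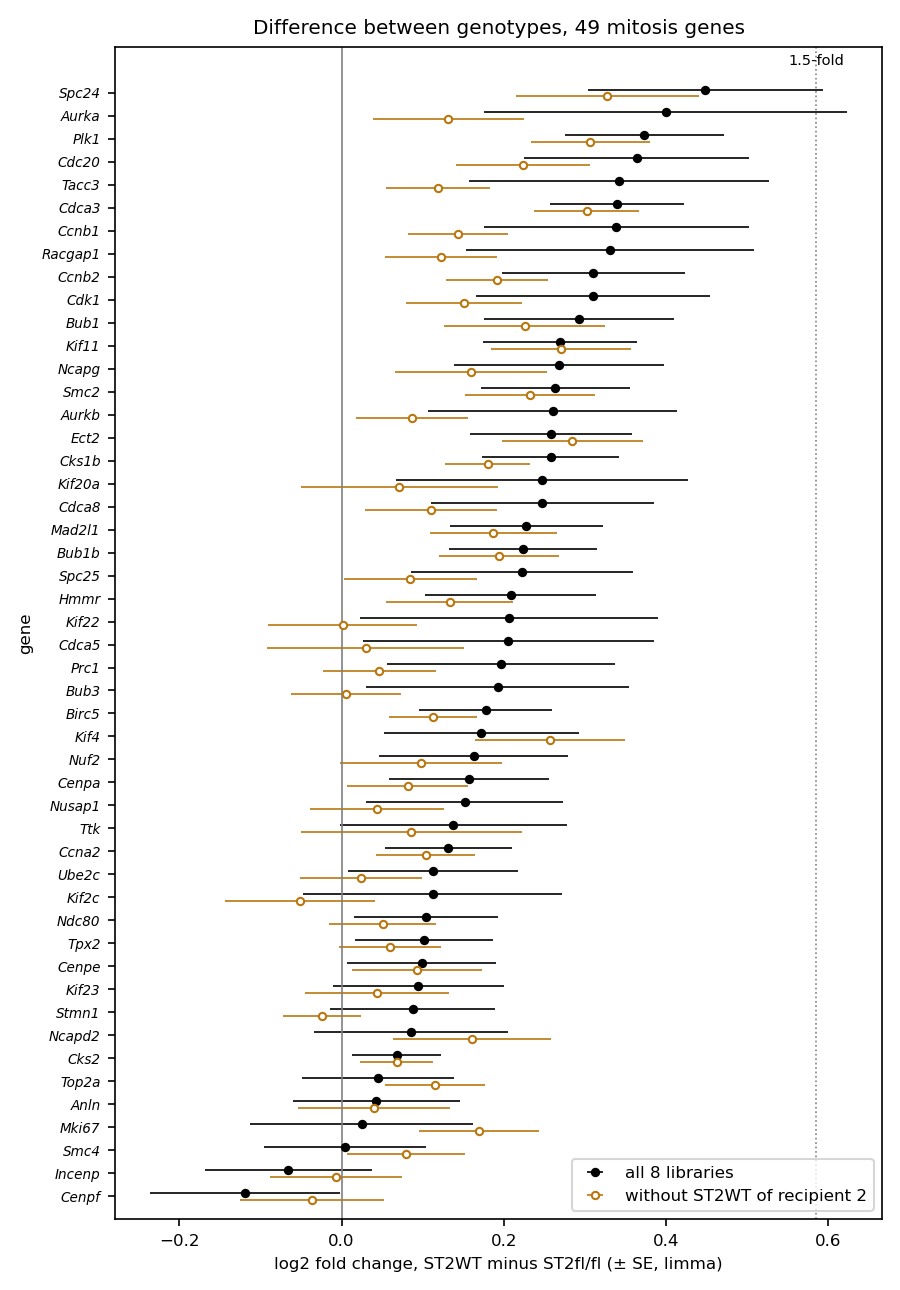
The log2 fold change of each of the 49 genes (ST2WT minus ST2fl/fl, limma, bars ± SE) is drawn from all 8 libraries and without the ST2WT library of recipient 2. All points lie left of the dotted line at 1.5-fold, 47 filled points lie right of 0, and *Aurka*, *Tacc3*, *Racgap1* and *Kif22* move farthest left when that library is left out.

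The difference of this library from the mean of the other 7 libraries correlated with log2 coding length at r = -0.461 over the 49 members and r = -0.263 over the 9388 tested entries with a coding length, while r was -0.017 to 0.351 and 0.00376 to 0.158 in the other libraries. With the GC content of the transcript, r for the ST2WT library of recipient 3 was -0.544 over the members and -0.167 over these entries. In the other libraries it was -0.264 to 0.242 and -0.14 to 0.118. The points of each correlation share 1 library, so these correlations are descriptions. The 9388 tested entries with a coding length were put in 5 classes of nearly equal size by that length. From the shortest, the median difference of the ST2WT library of recipient 2 was 0.11, 0.22, 0.10, -0.06 and -0.29. All 8, 7, 7 and 8 members in the first 4 classes were above the mean of the other libraries, as were 12 of the 19 in the longest class. *Mki67* (coding length 9531 bases) and *Cenpf* (8991 bases) were farthest below, at -0.48 and -0.35. The members' fold changes correlated with log2 coding length at r = -0.334, and at 0.0258 without this library. The part of coding length in the fold changes was not separated from that of genotype. With each library's trend on coding length and GC content removed, an alternative chosen after the data were seen, 48 of the 49 members had a fold change above 0, the median was 0.22, 19 were higher at an unadjusted p under 0.05 against 7.67% of the 9388 entries, and 0 passed the threshold (limma).

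**Figure D3:**
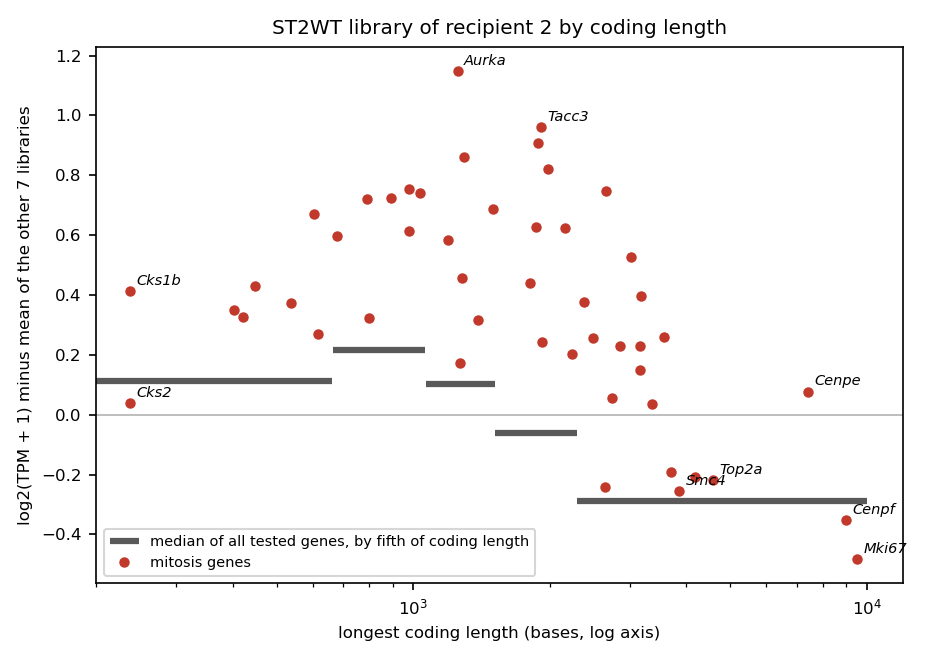
Each red point is 1 of the 49 mitosis genes, placed by its longest coding length (bases, log axis) and by the log2(TPM + 1) of the ST2WT library of recipient 2 minus the mean of the other 7 libraries. Grey bars mark the median of the tested genes with a coding length in each of its 5 classes, from 0.11 in the shortest to -0.29 in the longest. *Mki67* and *Cenpf* lie lowest at the right.

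Cyclins, *Cdk1* and the Cks proteins form the kinase that starts mitosis. All 6 members had a fold change above 0 and 2 of them, *Ccnb2* and *Cks1b*, had an unadjusted p under 0.05. *Ccnb2*, a B-type cyclin that activates CDK1, was at 595, 743, 506 and 511 TPM in the ST2WT libraries of recipients 1, 2, 3 and 4 and at 475, 445, 477 and 479 TPM in the ST2fl/fl libraries. The ST2WT libraries all lay above the ST2fl/fl libraries, closely so in recipients 3 and 4 (limma log2 fold change 0.31, SE 0.11, adjusted p = 0.270). In a two-sided exact permutation test p was 0.0286, the smallest that the 70 labelings can give. These labelings ignore the pairing by recipient. The log2 fold change of *Ccnb2* was 0.19 without the ST2WT library of recipient 2. *Cks1b*, whose protein binds CDKs and, with SKP2, targets p27 for destruction, was at 837, 1069, 910.4 and 841 TPM in ST2WT and at 706, 772, 783 and 785 TPM in ST2fl/fl libraries. The groups did not overlap, and recipient 4 had the smallest gap (limma log2 fold change 0.26, SE 0.08, adjusted p = 0.229). *Cks2*, its paralog and the most abundant member, was at 1185, 1230.2, 1301 and 1208 TPM in ST2WT and at 1191, 1186, 1193 and 1126 TPM in ST2fl/fl libraries. The groups overlapped, and the populations of recipient 1 were level (limma log2 fold change 0.07, SE 0.05, adjusted p = 0.571). *Ccnb1*, the main cyclin of mitotic entry, was at 163, 279.7, 172 and 153 TPM in ST2WT and 143, 158, 144 and 144 TPM in ST2fl/fl libraries. Its log2 fold change of 0.34 was 0.14 without the ST2WT library of recipient 2, the highest of the 8. *Cdk1* had a log2 fold change of 0.31, and 0.15 without that library, and *Ccna2*, a cyclin of S phase and early mitosis, had 0.13. Reads that match both *Cks1b* and *Cks2* may have been counted for either gene.

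Cells leave mitosis when the anaphase-promoting complex, a ubiquitin ligase, marks cyclin B and securin for destruction. *Cdca3*, which recruits WEE1 to an SCF ubiquitin ligase at mitotic entry, lies on chromosome 6 from 124829547 to 124833701 (plus strand). It was at 147, 158, 144 and 136 TPM in the ST2WT libraries of recipients 1, 2, 3 and 4 and at 109, 112, 114 and 127 TPM in the ST2fl/fl libraries. Every ST2WT library was above every ST2fl/fl library, and the gap was widest in recipient 2 and narrowest in recipient 4. The log2 fold change was 0.34 (SE 0.08, adjusted p = 0.111 in limma, and p = 0.0286 in a two-sided exact permutation test), and without the ST2WT library of recipient 2 it was 0.30 with an adjusted p of 0.0471 (limma), below 1.5-fold. *Cdc20* was at 107, 142, 88.2 and 94.3 TPM in ST2WT and at 91.3, 78.5, 80.2 and 79.9 TPM in ST2fl/fl libraries. ST2WT was higher within each recipient, but the groups overlapped between recipients 1 and 3 (limma log2 fold change 0.36, SE 0.14, adjusted p = 0.288, and 0.22 for the fold change without the ST2WT library of recipient 2). *Ube2c*, the ubiquitin-conjugating enzyme of the complex, was at 374, 451, 344 and 337 TPM in ST2WT and 379, 354, 303 and 351 TPM in ST2fl/fl libraries. It was higher in ST2WT cells in recipients 2 and 3 and lower in recipients 1 and 4 (limma log2 fold change 0.11, SE 0.10, adjusted p = 0.624, and 0.024 for the fold change without that library).

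The Polo and Aurora kinases drive spindle assembly. *Plk1*, the Polo-like kinase that acts from mitotic entry to cytokinesis, lies on chromosome 7 from 122159439 to 122169873 (plus strand). It was at 93.6, 107, 89.8 and 84.1 TPM in ST2WT and at 73.6, 64.6, 74.4 and 75.4 TPM in ST2fl/fl libraries. No ST2fl/fl library reached the lowest ST2WT library (limma log2 fold change 0.37, SE 0.10, adjusted p = 0.140, and p = 0.0286 in a two-sided exact permutation test), and without the ST2WT library of recipient 2 the log2 fold change was 0.31. *Aurka*, the kinase of the spindle poles, was at 65.4, 135, 64.9 and 60.8 TPM in ST2WT and at 53.5, 67.5, 51.9 and 60.5 TPM in ST2fl/fl libraries. Recipient 2 held the highest library of each group, and in recipient 4 the populations were level. The log2 fold change of *Aurka* was 0.40 (SE 0.22, adjusted p = 0.438 from limma) and was 0.13 without the ST2WT library of recipient 2. *Tpx2*, which activates Aurora A on the spindle, had a log2 fold change of 0.10, and 0.059 without that library.

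**Figure D4:**
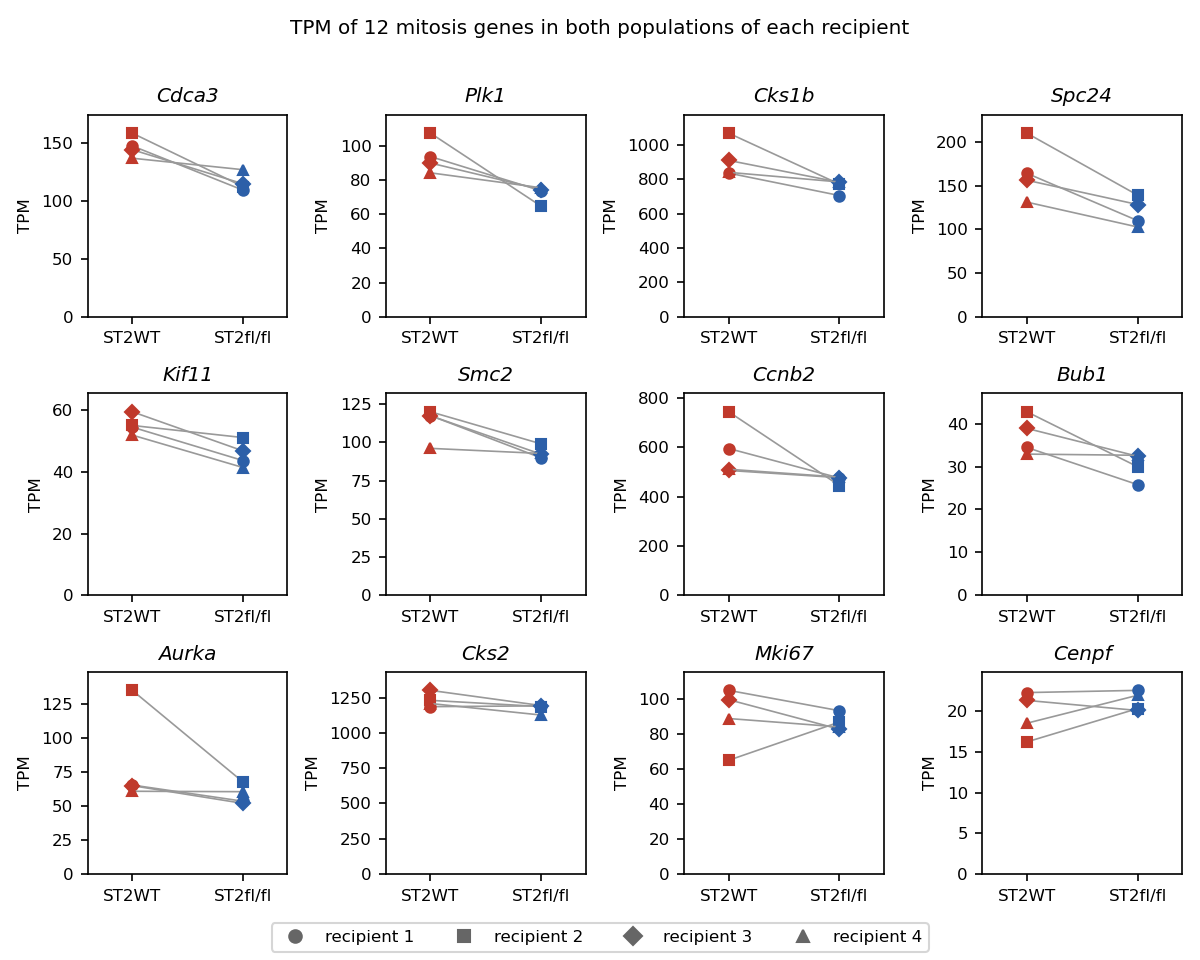
TPM of 12 mitosis genes is plotted for the ST2WT (red) and ST2fl/fl (blue) population of each of 4 recipients, each axis from 0, with a line joining the libraries of 1 recipient. *Cdca3*, *Plk1* and *Kif11* lines slope down in all 4 recipients, *Aurka* is pulled up by recipient 2 (135 TPM), and for *Mki67* and *Cenpf* the line of recipient 2 slopes up.

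The chromosomal passenger complex, in which INCENP, survivin and borealin carry Aurora B, corrects wrong attachments of microtubules. Of its 4 members, 3 had a fold change above 0 and none had an unadjusted p under 0.05. *Birc5*, which encodes survivin, was at 341, 431, 384 and 353 TPM in ST2WT and at 327, 324, 330 and 348 TPM in ST2fl/fl libraries. The ST2WT library was above the ST2fl/fl library in every recipient, by little in recipients 1 and 4 (limma log2 fold change 0.18, SE 0.08, adjusted p = 0.367, and 0.11 for the fold change without the ST2WT library of recipient 2). *Aurkb* had a log2 fold change of 0.26 and *Cdca8*, the borealin gene, of 0.25, which were 0.09 and 0.11 without the ST2WT library of recipient 2. *Incenp* was at 40.2, 32.7, 41.2 and 35.2 TPM in ST2WT and at 41.5, 38.1, 40.1 and 36.1 TPM in ST2fl/fl libraries. It was 1 of the 2 members with a fold change below 0 (log2 -0.07, SE 0.10, adjusted p = 0.784 from limma), and the groups overlapped.

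The spindle checkpoint delays anaphase until every kinetochore is attached. All 5 members had a fold change above 0, with log2 values of 0.14 to 0.29, and *Bub1*, *Bub1b* and *Mad2l1* had an unadjusted p under 0.05. *Bub1*, a kinetochore kinase, was at 34.4, 42.7, 38.9 and 32.9 TPM in ST2WT and at 25.8, 29.9, 32.4 and 32.6 TPM in ST2fl/fl libraries. The lowest ST2WT and the highest ST2fl/fl library were nearly level, both from recipient 4 (limma log2 fold change 0.29, SE 0.12, adjusted p = 0.309). *Bub1b*, which encodes BUBR1, an inhibitor of the anaphase-promoting complex, was at 30.5, 32.6, 31.5 and 27.9 TPM in ST2WT and at 25.5, 25.2, 26.9 and 26.6 TPM in ST2fl/fl libraries, with no overlap (limma log2 fold change 0.22, SE 0.09, adjusted p = 0.315). *Mad2l1*, the MAD2 gene, was at 65.8, 73.2, 70.7 and 59.8 TPM in ST2WT and at 53.8, 59.8, 61.0 and 54.6 TPM in ST2fl/fl libraries. It was higher in ST2WT cells within each recipient, but the ST2WT library of recipient 4 lay inside the range of the ST2fl/fl libraries (limma log2 fold change 0.23, SE 0.09, adjusted p = 0.325). *Bub3*, the most abundant of the 5, was at 78.3, 128, 76.3 and 72.4 TPM in ST2WT and at 72.6, 82.6, 72.5 and 74.1 TPM in ST2fl/fl libraries. Its log2 fold change of 0.19 (SE 0.16, adjusted p = 0.586 from limma) was 0.0051 without the ST2WT library of recipient 2. *Ttk*, the checkpoint kinase MPS1, was the least abundant member, at 7.68 to 11.4 TPM in ST2WT and 7.51 to 9.63 TPM in ST2fl/fl libraries.

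The kinetochore joins chromosomes to the spindle. Of 7 members, 6 had a fold change above 0, and *Spc24* alone had an unadjusted p under 0.05. *Spc24*, a subunit of the NDC80 complex that grips microtubules, lies on chromosome 9 from 21755442 to 21760303 (minus strand). It was at 164, 210.2, 156 and 131 TPM in ST2WT and at 110.1, 139, 129 and 103 TPM in ST2fl/fl libraries. ST2WT was higher in each recipient, but the ST2WT library of recipient 4 lay below the ST2fl/fl library of recipient 2. Its log2 fold change of 0.45 was the largest of the 49 (SE 0.14, adjusted p = 0.220 from limma), and 0.33 without the ST2WT library of recipient 2. With the recipient as a block its adjusted p was 0.0460 (limma), with the fold change still under 1.5. The other 3 subunits of this complex, *Ndc80*, *Nuf2* and *Spc25*, had log2 fold changes of 0.10, 0.16 and 0.22, and of 0.051, 0.098 and 0.085 without that library. *Cenpa*, the histone variant that marks the centromere, was at 361, 402, 315 and 303 TPM in ST2WT and at 331, 281, 304 and 316 TPM in ST2fl/fl libraries. The groups overlapped, and recipient 4 went the other way (limma log2 fold change 0.16, SE 0.10, adjusted p = 0.482, and 0.082 for the fold change without the ST2WT library of recipient 2). *Cenpe*, a kinetochore motor, had a log2 fold change of 0.10. *Cenpf*, a large kinetochore protein, was at 22.3, 16.2, 21.3 and 18.5 TPM in ST2WT and at 22.5, 20.3, 20.1 and 21.9 TPM in ST2fl/fl libraries. ST2WT was higher in recipient 3 alone (limma log2 fold change -0.12, SE 0.12, adjusted p = 0.646). It was -0.04 without the ST2WT library of recipient 2 and 0.05 with the trend on coding length and GC content removed.

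Spindle motors and microtubule proteins build and shape the spindle. All 8 members had a fold change above 0, and *Kif11* alone had an unadjusted p under 0.05. *Kif11*, the kinesin that pushes the spindle poles apart, lies on chromosome 19 from 37376403 to 37421859 (plus strand). It was at 54.5, 55.0, 59.5 and 51.9 TPM in ST2WT and at 43.7, 51.1, 46.8 and 41.4 TPM in ST2fl/fl libraries. The groups did not overlap, and recipient 2 had the smallest gap (limma log2 fold change 0.27, SE 0.10, adjusted p = 0.259). The log2 fold change of *Kif11* was also 0.27 without the ST2WT library of recipient 2. *Stmn1*, which encodes the microtubule destabiliser stathmin and was the most abundant of these 8 members, was at 737, 971, 701 and 701 TPM in ST2WT and at 713, 769, 731 and 689 TPM in ST2fl/fl libraries. Its log2 fold change of 0.09 (SE 0.10, adjusted p = 0.704 from limma) turned to -0.02 without the ST2WT library of recipient 2. *Tacc3*, a spindle pole protein that stabilises microtubules, was at 98.0, 181, 98.6 and 95.0 TPM in ST2WT and at 82.6, 87.5, 92.5 and 95.6 TPM in ST2fl/fl libraries. In recipient 4 its populations were level, and the log2 fold change of 0.34 was 0.12 without the ST2WT library of recipient 2. *Kif2c*, a microtubule-depolymerising kinesin, and *Kif22*, a chromosome-arm kinesin, had log2 fold changes of 0.11 and 0.21, and of -0.05 and 0.0013 without that library. *Kif4*, a kinesin of chromosome arms and the central spindle, went the other way, with 0.17 and 0.26 without that library. *Nusap1* and *Hmmr*, both spindle proteins, had log2 fold changes of 0.15 and 0.21, and of 0.044 and 0.13 without that library.

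Cytokinesis splits the cell at the central spindle. All 6 members had a fold change above 0. *Ect2*, the exchange factor that activates RhoA at the cleavage furrow, was at 25.6, 23.8, 28.3 and 23.4 TPM in ST2WT and at 20.2, 21.6, 22.2 and 19.9 TPM in ST2fl/fl libraries. No library of 1 group reached into the other, and recipient 2 had the smallest gap (limma log2 fold change 0.26, SE 0.10, adjusted p = 0.296). *Racgap1*, which with the kinesin KIF23 forms centralspindlin, was at 34.9, 63.6, 37.3 and 33.4 TPM in ST2WT and at 32.1, 31.4, 32.3 and 33.2 TPM in ST2fl/fl libraries. Its groups were also apart, though by very little in recipient 4, and the log2 fold change of 0.33 was 0.12 without the ST2WT library of recipient 2. *Prc1*, the crosslinker of the central spindle and the most abundant of the 6, was at 47.3, 74.3, 52.4 and 46.5 TPM in ST2WT and at 44.9, 48.7, 46.7 and 48.1 TPM in ST2fl/fl libraries. The groups overlapped (limma log2 fold change 0.20, SE 0.14, adjusted p = 0.525), with a log2 fold change of 0.05 without the ST2WT library of recipient 2. *Kif23*, *Kif20a*, a kinesin of the central spindle, and *Anln*, the contractile ring protein anillin, had log2 fold changes of 0.09, 0.25 and 0.04, and of 0.043, 0.071 and 0.040 without the ST2WT library of recipient 2. Without both libraries of recipient 2 *Kif20a* was at -0.032 and *Kif23* at 0.0029.

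Condensin, topoisomerase II alpha and Ki-67 give mitotic chromosomes their shape, and sororin holds sister chromatids together. All 7 members had a fold change above 0, and *Smc2* alone had an unadjusted p under 0.05. *Smc2*, a core subunit of condensin, was at 117, 119.9, 117 and 96.0 TPM in ST2WT and at 89.7, 98.9, 92.2 and 92.7 TPM in ST2fl/fl libraries. It was higher in ST2WT cells within each recipient, and the ST2WT library of recipient 4 alone fell inside the range of the other group (limma log2 fold change 0.26, SE 0.09, adjusted p = 0.256). *Smc4*, its partner and the most abundant of these 7 members, was at 191, 147, 193 and 161 TPM in ST2WT and at 182, 169, 171 and 163 TPM in ST2fl/fl libraries. The groups overlapped (limma log2 fold change 0.0043, SE 0.10, adjusted p = 0.988). Its fold change was below 0 with quantile normalization (-0.069) and without mitochondrial entries (-0.015). *Mki67*, the gene of the proliferation marker Ki-67, lies on chromosome 7 from 135689784 to 135716361 (minus strand) and was at 105, 65.0, 99.6 and 88.8 TPM in ST2WT and at 93.3, 86.8, 82.7 and 84.0 TPM in ST2fl/fl libraries. The ST2WT library of recipient 2 was the lowest of the 8, and in the other 3 recipients ST2WT was higher. The log2 fold change of *Mki67* was 0.02 (SE 0.14, adjusted p = 0.945 from limma), -0.025 with quantile normalization, and 0.17 without that library (adjusted p = 0.280 from limma). *Top2a*, the topoisomerase gene, had a log2 fold change of 0.04, and 0.12 without that library. The condensin subunits *Ncapd2* and *Ncapg* had 0.09 and 0.27, and both had 0.16 without that library. *Cdca5*, the sororin gene, had 0.21, and 0.030 without it.

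Across the 8 libraries the median correlation of log2(TPM + 1) over the 1176 pairs of members was 0.643, with 79.7% of pairs above 0, and 0.439 with 84.4% above 0 without the ST2WT library of recipient 2. The pairs share the same 8 libraries, so the values are a description.

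Of 82 other mitosis genes found in the table, 69 had a fold change above 0, against 48.25% of all entries tested. At an unadjusted p under 0.05, 14 were higher and 0 lower in ST2WT cells, against 6.8% and 7.11% of all entries (limma). The threshold was passed by 0, against 0.518% of all entries. The median log2 fold change was 0.15, or 0.091 without the ST2WT library of recipient 2. There 15 were higher and 1 was lower at that p, against 7.72% and 9.08% of all entries (limma). *Cenpk*, a subunit of the inner kinetochore, was at 83.7, 90.3, 96.3 and 92.7 TPM in ST2WT and at 69.1, 63.2, 63.8 and 58.5 TPM in ST2fl/fl libraries. The groups were far apart, with a log2 fold change of 0.51 (SE 0.09, adjusted p = 0.0283 from limma) that stayed under 1.5-fold. *Cenpw* and *Cenph*, of the same inner kinetochore, had log2 fold changes of 0.34 and 0.32 with adjusted p of 0.106 and 0.201 (limma).

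DNA replication genes act in the S phase before mitosis. All 37 listed had a fold change above 0, against 48.25% of all entries tested. At an unadjusted p under 0.05, 23 were higher, against 6.8% of all entries, and 0 passed the threshold, against 0.518% (limma). The median log2 fold change was 0.35, or 0.23 without the ST2WT library of recipient 2. *Cdc6*, which loads the replicative helicase, was at 17.0, 22.3, 13.8 and 12.7 TPM in ST2WT and at 9.27, 10.9, 11.5 and 9.53 TPM in ST2fl/fl libraries. The groups did not overlap (limma log2 fold change 0.60, SE 0.17, adjusted p = 0.158). *Dut*, the dUTPase, and *Rfc4*, a clamp loader subunit, had log2 fold changes of 0.41 and 0.42. The difference between the replication and the mitosis genes was not tested.

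**Figure D5:**
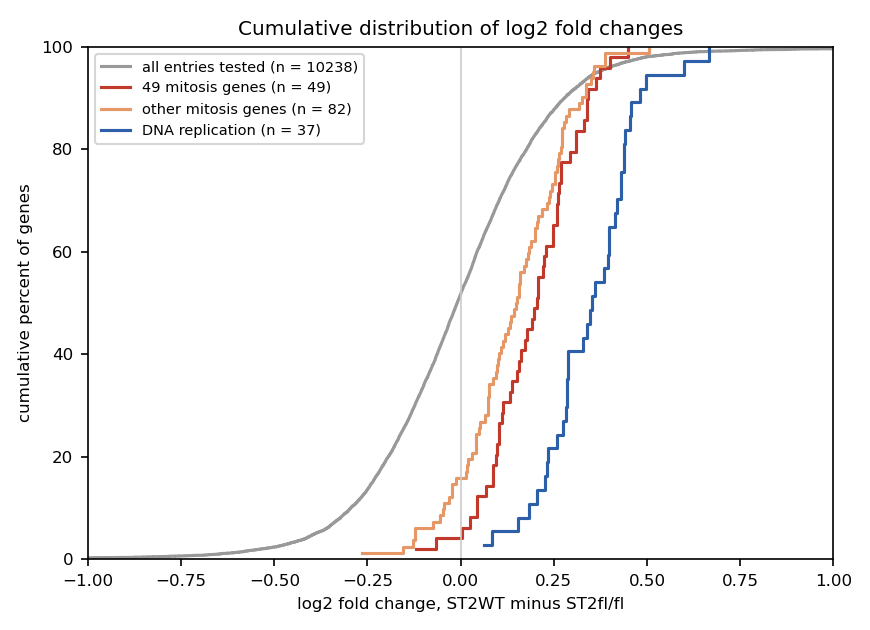
The lines give the cumulative percent of genes (y axis) by log2 fold change, ST2WT minus ST2fl/fl (x axis), for all 10238 entries tested, the 49 mitosis genes, 82 other mitosis genes and 37 DNA replication genes. The mitosis lines lie right of the line of all entries (median 0.21 and 0.15 against -0.01), and the replication line lies farthest right (median 0.35).

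Of 16 regulators of mitotic transcription, 11 had a fold change above 0, against 48.25% of all entries tested. At an unadjusted p under 0.05, 0 were higher and 0 lower, against 6.8% and 7.11% of all entries, and 0 passed the threshold (limma). *Mybl2*, which switches on mitotic genes with MuvB, was at 11.7, 8.46, 11.0 and 7.89 TPM in ST2WT and at 7.28, 8.14, 8.40 and 7.25 TPM in ST2fl/fl libraries. It was higher in ST2WT cells within each recipient (limma log2 fold change 0.28, SE 0.14, adjusted p = 0.387). *Foxm1*, the forkhead factor of late mitotic genes, was at 6.96, 7.47, 8.55 and 8.28 TPM in ST2WT and at 10.2, 7.39, 10.5 and 9.46 TPM in ST2fl/fl libraries. It was lower in ST2WT cells in 3 of the 4 recipients (limma log2 fold change -0.23, SE 0.13, adjusted p = 0.442). *E2f4*, a repressor in the DREAM complex, had a log2 fold change of 0.33, and 0.16 without the ST2WT library of recipient 2. Of 16 G1 cyclins, kinases and inhibitors tested, 8 had a fold change above 0. At an unadjusted p under 0.05, 2 were higher and 2 lower in ST2WT cells, against 6.8% and 7.11% of all entries, and 0 passed the threshold (limma). *Ccnd2*, a D-type cyclin, was at 26.9 to 34.2 TPM in ST2WT and 39.4 to 44.2 TPM in ST2fl/fl libraries, and *Cdkn2c*, an inhibitor of CDK4 and CDK6, was at 15.7 to 17.9 and 20.9 to 22.7 TPM. Both were lower in ST2WT cells in every library (log2 fold changes -0.43 and -0.39, adjusted p = 0.103 and 0.111 from limma). *Ccne1*, the cyclin of S phase entry, had a log2 fold change of 0.30 (adjusted p = 0.263 from limma).

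The sorted cells carried all 12 T cell markers searched, and their summed level did not overlap between the groups, at 13328 to 13938 TPM in ST2WT and 15326 to 15565 TPM in ST2fl/fl libraries. Of the 12, 11 had a fold change below 0, and 0 passed the threshold in limma. At an unadjusted p under 0.05, 5 were lower in ST2WT cells and 0 higher, against 7.11% and 6.8% of all entries (limma). Without the ST2WT library of recipient 2, 9 were lower, against 9.08%. *Cd3g* had a log2 fold change of -0.33 with an adjusted p of 0.0106 (limma), a change smaller than 1.5-fold. Some markers of other cells had no line in the table, among them *Cd79a* and *Ms4a1* (B cell), *Lyz2*, *Itgam* and *Csf1r* (myeloid) and *Klf1* (erythroid). Others were present. Of 8 B cell markers 3 were listed, with a summed level of 11.9 to 17.8 TPM in ST2WT and 8.37 to 10.9 TPM in ST2fl/fl libraries. Of 8 CD8 T and NK cell markers 4 were listed (88.8 to 116 and 82.3 to 108 TPM), of 12 myeloid markers 2 (11.5 to 12.6 and 10.4 to 16.3 TPM), and of 10 erythroid and megakaryocyte markers 3 (3.25 to 5.91 and 2.26 to 3.75 TPM). The part of these cells, and of the lower T cell markers, in the mitosis genes was not tested. *Il1rl1*, the gene of ST2, was at 14.6 to 21.3 TPM in ST2WT and 14.9 to 17.7 TPM in ST2fl/fl libraries (log2 fold change 0.14, adjusted p = 0.608 from limma), and TPM of the whole gene do not show whether the deleted part was read. Exons of 15 members overlap exons of another gene, 12 of them on the opposite strand, among them *Plk1*, *Cdc20* and *Kif20a*. Whether reads were assigned by strand is not given in the sources used here, so reads of such pairs cannot be told apart.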

How the data were processed

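RNA-Seq of donor CD4+ T cells sorted into SmartSeq low-input lysis buffer was analysed from 8 libraries, 4 of each genotype, prepared with Nextera XT and sequenced on a NextSeq 500. The authors checked and aligned the reads to GRCm38.p6 in CLC Genomics Workbench 20.0.3, assigned them to genes and deposited TPM, made for each library separately. The submitters' processing notes name edgeR, whose results were not used here. The TPM sum to 999334 to 999527 per library over 12417 entries, and 0 entries are at 0 in any library, so genes missed in some library are not analysed here. Read totals cannot be recovered from TPM, and depth and counting error are unknown.

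The comparison used limma 3.58.1 (R 4.3.3) over 10238 entries whose mean reached 1 TPM, leaving out 2179, on log2(TPM + 1). This is a scale that understates changes of low genes. The fit had a variance trend and no covariate. The threshold was a fold change over 1.5 with a p under 0.05 after Benjamini-Hochberg adjustment over all entries tested. Exact permutation tests used the 70 labelings of 4 against 4 and reach a two-sided p of 0.0286 at best. They treat the libraries as unpaired, so their p does not take the pairing by recipient into account. The members and lists were chosen with earlier results of these data known, and no p was computed over a list. Named with every library's value were members past the threshold, and in each role the most abundant member and the member with the smallest p, while other members with all values were added after the values were seen. From each pathway list the 3 genes with the smallest p were named, and the 10 entries whose level followed the members most closely, except a few genes that are not reported here. *Eomes*, 1 of the CD8 T and NK cell markers, stands on 2 lines. The fit used the first, and the summed level of these markers held both.

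Alternatives were other pseudocounts, filters, scalings and variance models, the recipient as a block, and leaving out each library or recipient. After the data were seen, the removal of each library's trend on coding length and GC content (natural splines) and combinations with the block were added. Libraries with the same number come from the same recipient by design, and their deviations from the group means correlated (0.195, 0.352, 0.118 and 0.163, against -0.283 to 0.109 between different numbers). The fit was tested on simulated data for this comparison over 10230 genes. It recovered 69 of 100 genes with a planted log2 change of 0.8 and 98 of 100 with 1.5, and called 4 unchanged genes. Coordinates and coding lengths are from GENCODE M21 on GRCm38, and promoters from RefSeq. Statistics beside the fit were computed in Python 3.11.15 and figures drawn with matplotlib 3.10.9.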

Additional observations from a re-analysis of the deposited data

Results flagged for a closer look

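Values of 98 groups (49 members in each genotype) were screened for a library far from the other 3 of its group, with the gap divided by the range above Dixon's limit for groups of 4. This found 19, where chance flags about 1 group in 20. The other entries of the table were not screened, so whether this share is particular to the members is not known. The ST2WT library of recipient 2, which stood apart over all entries as well, accounted for 11 of the 19. It was the highest of its group for *Ccnb1* (279.7 TPM), *Aurka* (134.9 TPM), *Aurkb* (84.7 TPM), *Bub3* (127.9 TPM), *Kif2c* (23.63 TPM), *Kif22* (52.4 TPM), *Tacc3* (181.4 TPM), *Stmn1* (971.1 TPM), *Racgap1* (63.61 TPM) and *Cdca5* (59.01 TPM), and the lowest for *Kif4* (15.68 TPM). The ST2WT library of recipient 4 was the lowest of its group for *Smc2* (96.01 TPM).

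Among ST2fl/fl libraries, that of recipient 2 was the highest for *Ccnb1* (157.6 TPM) and *Bub3* (82.63 TPM), the same direction as the ST2WT library of that recipient, and the lowest for *Ccnb2* (444.8 TPM) and *Plk1* (64.55 TPM). That of recipient 1 was the lowest for *Cks1b* (705.9 TPM) and the highest for *Cdc20* (91.26 TPM), and that of recipient 4 the lowest for *Cks2* (1126 TPM).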

How the results depend on the processing

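No member passed the threshold under any of the alternatives in limma, as no member's fold change reached its fold change limit in any of them. The adjusted p (limma) taken alone was under 0.05 for *Cdca3* in 3 of 26 alternatives (lowest 0.0279, with array weights). It was so for *Spc24* in 3 (lowest 0.0353) and *Kif11* in 2 (lowest 0.0369), both lowest with the block without recipient 2. For *Plk1* it was so in 2 (lowest 0.0399, with array weights), and for the other members in none. The recipient as a replicate block moved the members with an unadjusted p under 0.05 from 12 to 16, against 6.8% and 10.3% of all entries. That count was 19 with the coding length and GC trend removed (7.67% of entries) and 23 with the block as well (11.4%). Leaving out libraries or recipients gave 5 to 20 members at an unadjusted p under 0.05, 43 to 47 with a fold change above 0, a median of 0.11 to 0.28 and 9 to 23 without overlap. All entries past the threshold, 53 as reported, were 32 with a pseudocount of 5, 95 with the block, 130.0 with array weights and 9 to 105 with a library or recipient left out.

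Some log2 fold changes turned sign, including those of *Kif20a* (0.25) and *Kif22* (0.21). *Kif2c* was -0.027 with array weights, -0.034 without the ST2WT library of recipient 2 and with the length and GC trend removed, and -0.023 with the block without recipient 2, where *Kif22* was -0.064 and *Kif20a* -0.032. With the length and GC trend removed *Cenpf* was 0.049, with the block or without it, and 0.036 also without the ST2WT library of recipient 2, where *Stmn1* was -0.044 and *Incenp* 0.0066. With quantile normalization *Mki67* was -0.025 and *Smc4* -0.069, and without mitochondrial entries *Smc4* was -0.015. With libraries or recipients left out, the range was -0.051 to 0.18 for *Kif2c*, -0.064 to 0.33 for *Kif22*, -0.024 to 0.14 for *Stmn1*, -0.032 to 0.40 for *Kif20a*, -0.016 to 0.084 for *Anln*, -0.058 to 0.17 for *Mki67*, -0.0093 to 0.12 for *Top2a*, -0.022 to 0.16 for *Ncapd2* and -0.051 to 0.080 for *Smc4*. The cause was not tested.

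TPM hold no depth, and changes as small as those of the members were not simulated, so the power to detect them with 4 libraries per genotype is unknown.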

Other observations

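Outside the members and lists, the 10 entries whose log2(TPM + 1) over the 8 libraries followed the mean of the members most closely included *Ywhaq* (r = 0.986), *Hmgb2* (0.985), *Atp5b* (0.965), *Eif3l* (0.965), *Dnajb6* (0.965), *Fpgs* (0.964), *Trmt5* (0.964) and *Tmco1* (0.964). Without the ST2WT library of recipient 2 the r of these genes was 0.848 to 0.952. *Hmgb2*, a chromatin protein of dividing cells, was at 1688, 2061, 1705 and 1510 TPM in the ST2WT libraries of recipients 1, 2, 3 and 4 and at 1487, 1536, 1464 and 1402 TPM in the ST2fl/fl libraries. It was higher in ST2WT cells within each recipient (limma log2 fold change 0.23, SE 0.09, adjusted p = 0.274).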
